A study of Mus musculus with 6 samples.

Results

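The 6 Fc receptor genes described here, Fcgr1, Fcgr2b, Fcgr3, Fcgr4, Fcer1g and Fcgrt, were taken by name from the 54532 genes of a mouse RNA-seq data set on iron overload in acute myeloid leukemia (AML). All 6 were found, and each was read in all 6 libraries. WT macrophages came from C57BL/6 mice that carried no leukemia and received PBS, and WT/FE macrophages from such mice injected repeatedly with iron dextran into the peritoneum. MA9 and MA9/FE mice were C57BL/6 mice that had received leukemia cells by transplantation and then PBS or iron dextran. The leukemia cells descended from c-kit+ marrow cells of C57BL/6J mice into which a retrovirus had carried the MLL-AF9 fusion gene and GFP, so the fusion was driven by the virus and not by its own promoter. Macrophages were sequenced from all 4 kinds of mice, and leukemia cells from the 2 leukemic kinds. The mice were obtained as young adults by the study's methods, and how many went into a library is not given in the sources used here. By the labels the macrophages are from the spleen, by the study's methods from the BM, and the leukemia cells are from the BM by the labels. There was 1 library per condition, which leaves every value unreplicated, and a difference between conditions cannot be told apart from a difference between mice.

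Fc receptors bind the constant part of antibodies. On macrophages the activating Fc gamma receptors take up antibody-coated cells and particles, and their signal starts at an ITAM, a tyrosine motif, of the shared chain encoded by Fcer1g, where Src family kinases and SYK act. Fcgr1 encodes the high-affinity receptor, Fcgr3 a low-affinity receptor and Fcgr4 a receptor for IgG2a, IgG2b and IgG2c, and all of these need the Fcer1g chain at the cell surface. Fcgr2b encodes the inhibitory receptor, whose ITIM recruits the phosphatase SHIP1, and it is also the Fc gamma receptor of B cells. Fcgrt encodes the neonatal Fc receptor, which binds IgG and albumin in acid endosomes and returns them from degradation.

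On the mouse genome GRCm38, 4 of the 6 genes lie within 275.749 kb of chromosome 1. Fcgr2b (ENSMUSG00000026656) lies at chr1:170958617-170976547 on the minus strand, Fcgr4 (ENSMUSG00000059089) at chr1:171018920-171029761 on the plus strand, Fcgr3 (ENSMUSG00000059498) at chr1:171051174-171064935 on the minus strand and Fcer1g (ENSMUSG00000058715) at chr1:171229572-171234365 on the minus strand. Fcgr1 (ENSMUSG00000015947) lies at chr3:96282909-96293969 and Fcgrt (ENSMUSG00000003420) at chr7:45092990-45103851, both on the minus strand. Fcgr2b and Fcgr3 share sequence in their exons. Of the 50-base words in Fcgr3 transcripts 9.58% also occurred in Fcgr2b transcripts, and of the 100-base words 2.54%. The read length and the handling of reads that match both genes are not given in the sources used here, so reads of these 2 genes may have been exchanged in part. Fcgr1, Fcgr4, Fcer1g and Fcgrt shared no word of either length with any other gene in the GENCODE transcripts.

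The promoters of the activating genes are shown because these genes went in opposite directions between cell kinds, as described below. Their upstream sequences (RefSeq, GRCm38.p6, 150 bases that end just before the annotated start, on the gene's strand) all held the core of the box bound by PU.1, the macrophage and B cell transcription factor. Capitals mark that core, GAGGAA, which reads TTCCTC on the other strand.
Fcgr1, chr3:96293970-96294119, minus strand: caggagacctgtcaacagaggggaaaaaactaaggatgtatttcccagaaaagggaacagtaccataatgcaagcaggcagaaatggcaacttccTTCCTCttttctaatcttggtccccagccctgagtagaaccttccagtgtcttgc
Fcgr3, chr1:171059404-171059553, minus strand, first of 2 starts: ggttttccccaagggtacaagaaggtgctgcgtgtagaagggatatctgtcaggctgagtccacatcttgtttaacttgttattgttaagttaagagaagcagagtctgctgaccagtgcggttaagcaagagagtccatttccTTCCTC
Fcgr4, chr1:171018776-171018925, plus strand: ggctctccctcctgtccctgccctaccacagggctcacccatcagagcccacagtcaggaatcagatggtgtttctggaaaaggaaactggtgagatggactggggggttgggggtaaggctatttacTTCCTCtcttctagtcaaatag
The core lay 55 to 50 bases before the start of Fcgr1 and 22 to 17 bases before that of Fcgr4. For Fcgr3 it lay 6 to 1 bases before the first start and 15 to 10 before the second. Both RefSeq starts of Fcgr3 lie inside the gene span given above, which is from GENCODE. The core was not in the 250 bases before the starts of Fcgr2b, Fcer1g and Fcgrt. Of 32851 mouse promoter windows of that length 23.3% held it on either strand. Neither the CRE core TGACGTCA (1.55% of all windows) nor the TATA box TATAAA (12.4%) was in any of the 6. A match of these letters is a description and not a binding site.

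The values are FPKM as deposited, which are reads scaled to exon length and library depth, and whole reads were recovered from them for all 36 values of the 6 genes. Each library had between 16085348 and 19518360 recovered reads. The macrophage libraries held RNA of other cells: the summed FPKM of 10 B cell markers was between 1277 and 2286 in the macrophages and at most 22.8 in the leukemia cells. The summed FPKM of 15 neutrophil markers was 15.7 and 17.7 in WT and WT/FE macrophages, with Ly6g at 0 in both, against 1834 (MA9) and 931 (MA9/FE) for macrophages of leukemic mice. In the leukemia cells that sum was 3013 and 2305. The 13 macrophage markers summed to 637, 1021, 731 and 1379 over the macrophages (WT, WT/FE, MA9, MA9/FE). They summed to 1250.1 and 1587 in leukemia cells without and with iron, of which the highest single marker held 1017 and 1348. The median marker was at 5.97 and 3.61 there against 32.2 to 54.5 in the macrophages. The markers did not all go the same way. Of the 13, 8 were lower and 5 higher in leukemia cells than in macrophages of MA9 mice. In MA9/FE mice 10 were lower and 3 higher. Among the lower ones C1qa, the A chain of complement C1q, was at 4.50 and 3.61 in the leukemia cells against 62.8 to 223 in the macrophages. In MA9 and in MA9/FE mice 11 of 12 leukemia markers were higher in the leukemia cells than in the macrophages and 1 was lower. Among the higher ones Hoxa9, an MLL-AF9 target, was at an FPKM of 40.6 and 41.0 in the leukemia cells and at most 0.791 in the macrophages. In such bulk libraries fewer cells of a kind cannot be told apart from less RNA per cell.

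Among the activating receptors Fcgr4 led in every macrophage library and Fcgr3 in both leukemia cell libraries, on the FPKM scale. Fcgr3 had FPKM levels at 11.2 (WT), 19.5 (WT/FE), 15.0 (MA9) and 27.5 (MA9/FE) for the macrophages, and at 82.3 and 80.4 in leukemia cells without and with iron. The leukemia cells were thus above every macrophage library for this gene, with 2593 and 2491 reads against 378 to 767. Fcgr4 had FPKM levels at 16.3 (WT), 27.0 (WT/FE), 32.8 (MA9) and 40.1 (MA9/FE) for the macrophages, and at 8.51 and 5.44 in leukemia cells without and with iron. Its order was the reverse, and no leukemia cell library reached a macrophage library. Fcgr1 was the lowest of the 6 genes in each library, at 2.87 (WT), 3.86 (WT/FE), 2.89 (MA9) and 5.16 (MA9/FE) for the macrophages, and at 0.830 and 0.519 in leukemia cells without and with iron. The last 2 values rest on 39 and 24 reads. The MA9 to WT macrophage ratio of Fcgr1 was 1.02, with a 95% counting interval (exact, from the reads, for counting error only) from 0.794 to 1.3.

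Fcer1g, the shared chain, was the highest of the 6 genes in every library. Its FPKM was 180.4 (WT), 188 (WT/FE), 171 (MA9) and 232 (MA9/FE) for the macrophages and 266 and 260.4 in leukemia cells without and with iron. In each library it stood at the 98.7th percentile or above among the genes read there, and the leukemia cells were above all macrophages. Fcgr2b had FPKM levels at 24.8 (WT), 30.9 (WT/FE), 21.8 (MA9) and 27.8 (MA9/FE) for the macrophages and at 25.1 and 24.2 in leukemia cells without and with iron. The leukemia cell values of the inhibitory receptor lay inside the range of the macrophages. Fcgrt had FPKM levels at 31.1 (WT), 34.5 (WT/FE), 21.3 (MA9) and 43.0 (MA9/FE) for the macrophages and at 9.54 and 11.0 in leukemia cells without and with iron, so each macrophage library was above both leukemia cell libraries.

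**Figure D1:**
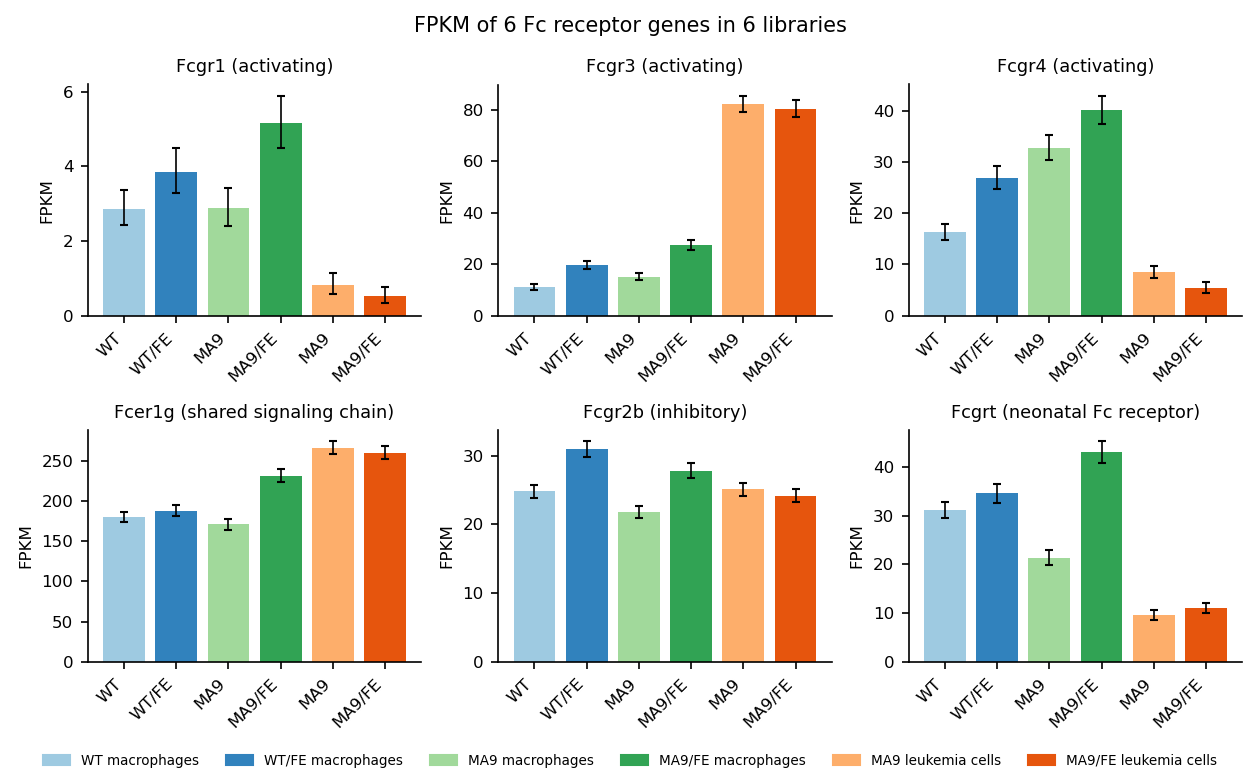
FPKM (vertical axis, from 0, its own scale in each panel) of the 6 genes in the 6 libraries, 1 bar per library with a 95% counting interval of its reads and no replicate. Fcgr3 is highest in the 2 leukemia cell libraries (82.3 and 80.4), Fcgr1, Fcgr4 and Fcgrt are lowest there, and Fcgr2b and Fcer1g vary least.

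The makeup of the Fc gamma receptor transcripts differed by library. Of the summed FPKM of Fcgr1, Fcgr2b, Fcgr3 and Fcgr4, Fcgr2b held 44.9% (WT), 38.0% (WT/FE), 30.0% (MA9) and 27.7% (MA9/FE) for the macrophages and 21.5% and 21.9% in leukemia cells without and with iron. Fcgr4 held between 29.6% and 45.3% in the macrophages and 7.29% and 4.92% in the leukemia cells. Fcgr3 held 70.5% and 72.7% in the leukemia cells and at most 27.3% in the macrophages. The ratio of the 3 activating genes together to Fcgr2b, which is a ratio of FPKM and not of receptors, was 1.23 in WT (95% counting interval 1.14 to 1.32), 1.63 in WT/FE (1.52 to 1.74), 2.33 in MA9 (2.17 to 2.50) and 2.62 in macrophages of MA9/FE mice (2.46 to 2.78). It was 3.65 (3.47 to 3.85) and 3.57 (3.38 to 3.78) in leukemia cells without and with iron. Ordered by this ratio, the neighbours whose intervals overlapped were MA9 and MA9/FE macrophages and the 2 leukemia cell libraries, and the other neighbours did not overlap. The level of the ratio depends on the length used for Fcgr2b, whose exons sum to 5790 bases while its longest coding transcript has 3544. With the longest coding transcript of each gene, a choice made after the data were seen, the ratio was 0.829 (WT), 1.11 (WT/FE), 1.55 (MA9) and 1.78 (MA9/FE) for the macrophages and 2.82 and 2.78 in the leukemia cells, so that WT macrophages then fell below 1. The B cell markers, whose cells carry Fcgr2b, summed to 2286, 2156, 1277 and 2209 over the macrophages (WT, WT/FE, MA9, MA9/FE). The FPKM of Fcgr2b was 24.8, 30.9, 21.8 and 27.8 in that order. Both were lowest in MA9 macrophages, and the highest value was in WT for the markers and in WT/FE for Fcgr2b. The share of Fcgr2b, which depends on the 3 activating genes as well, was lowest in MA9/FE macrophages. The part of B cells in the Fcgr2b level was not tested.

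**Figure D2:**
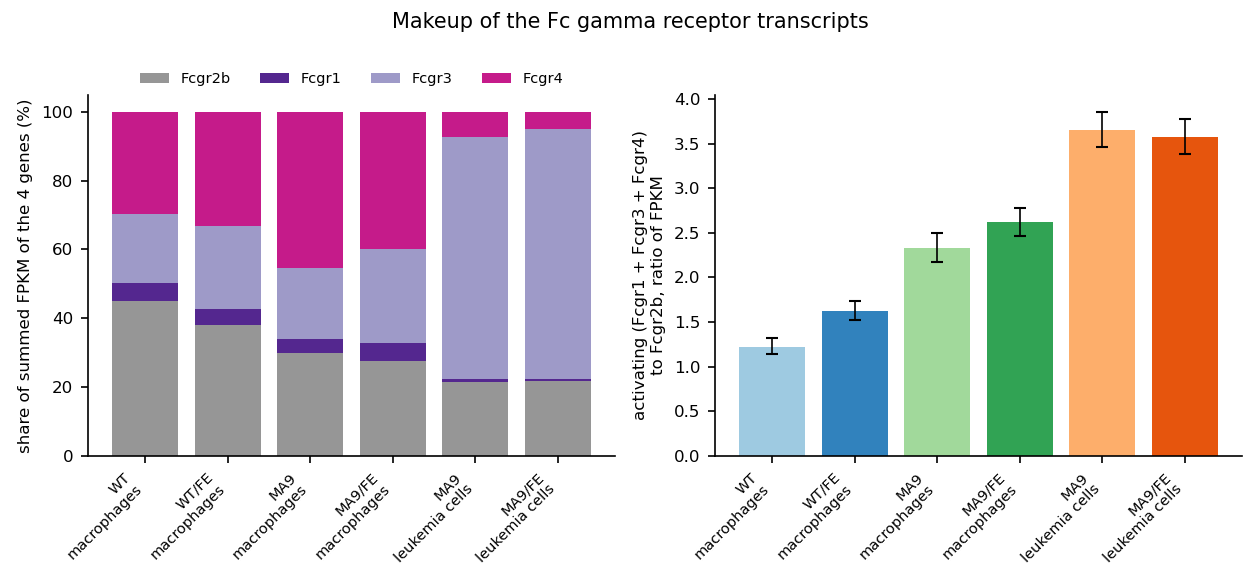
Left, share of the summed FPKM (%) of Fcgr2b, Fcgr1, Fcgr3 and Fcgr4 in each library. Right, ratio of the FPKM of the activating genes Fcgr1, Fcgr3 and Fcgr4 together to that of Fcgr2b, with 95% counting intervals and no replicate. Fcgr2b holds 44.9% in WT macrophages and 21.5% in MA9 leukemia cells, where Fcgr3 holds 70.5%, and the ratio goes from 1.23 to 3.65.

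Whether iron overload was accompanied by other Fc receptor levels in macrophages was read from 2 pairs of libraries that share none. In WT mice all 6 genes were higher with iron, with Fcgr3 and Fcgr4 furthest apart, and in MA9 mice all 6 were again higher, with Fcgrt and Fcgr3 furthest apart. In WT mice the WT/FE to WT ratio after TMM scaling (trimmed mean of M values, which lines up the bulk of genes in a pair of libraries) was 1.74 for Fcgr3 (1.53 to 1.99), 1.65 for Fcgr4 (1.45 to 1.87), 1.34 for Fcgr1 (1.07 to 1.69) and 1.24 for Fcgr2b (1.18 to 1.31). The ratio was 1.11 for Fcgrt (1.02 to 1.20) and 1.04 for Fcer1g (0.986 to 1.09), the latter with an interval that holds 1. On the log2(FPKM + 1) scale the differences ran from 0.05 to 0.75 with a median of 0.31, against a median of -0.02 over the 16616 genes tested. None of the 6 reached a fold of 2, which 1.23% of all tested genes did.

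In MA9 mice the MA9/FE to MA9 ratio of macrophages was 2.07 for Fcgrt (1.89 to 2.26), 1.87 for Fcgr3 (1.66 to 2.11), 1.84 for Fcgr1 (1.47 to 2.30), 1.39 for Fcer1g (1.32 to 1.46), 1.31 for Fcgr2b (1.24 to 1.39) and 1.25 for Fcgr4 (1.13 to 1.39). All 6 intervals lay above 1. The log2(FPKM + 1) differences ran from 0.32 to 1.01 with a median of 0.58, against 0.02 over all genes tested. Fcgrt alone of the 6 passed a fold of 2, by a narrow margin (1.01), where 2.43% of all tested genes did. It lost that call with FPKM as deposited, with median-of-ratios size factors and once the trend of the differences on exon length was removed. With that trend removed the difference of Fcgr4 was 0.13 and that of Fcer1g 0.28.

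A limma fit of iron and leukemia over the 4 macrophage libraries, with 1 residual degree of freedom, called none of the 6 genes for iron at a Benjamini-Hochberg adjusted p at or under 0.05, where it called 0.261% of 16109 genes. At an unadjusted p under 0.05 there were 4 of the 6, and 808 of all genes. Fcgr3 came nearest, with a log2 difference of 0.80 (SE 0.19, adjusted p = 0.130). Fcgrt followed at 0.57 (SE 0.22, adjusted p = 0.782). The other adjusted p-values of limma were 0.805 or higher, with differences of 0.50 for Fcgr1, 0.49 for Fcgr4, 0.33 for Fcgr2b and 0.25 for Fcer1g. Macrophage markers were higher with iron in the same pairs: 12 of 13 in WT mice (median 0.90) and 13 of 13 in MA9 mice (median 0.82). B cell markers were higher with iron in 10 of 10 in MA9 mice (median 0.57) and in 4 of 10 in WT mice (median -0.03). The part of either in the Fc receptor differences was not tested.

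Set against macrophage markers, the iron differences took other values. The ratio of Fcgr3 to Csf1r, the CSF1 receptor that the study's macrophage gate used as CD115, was 0.197 in WT and 0.176 in WT/FE macrophages, and with leukemia it was 0.235 (MA9) and 0.280 (MA9/FE). The ratio of Fcgr3 to Adgre1, which encodes F4/80, was 0.278 in WT and 0.358 in WT/FE and 0.467 in MA9 and 0.524 in MA9/FE macrophages. Fcgr3 was therefore lower relative to Csf1r and higher relative to Adgre1 with iron in WT mice, and higher relative to both in MA9 mice. Fcgrt was at 0.549 and 0.312 of Csf1r in WT and WT/FE and at 0.334 and 0.438 in MA9 and MA9/FE macrophages. Fcgr4 was at 0.288 and 0.243 of Csf1r in WT and WT/FE and at 0.514 and 0.409 in MA9 and MA9/FE macrophages. Relative to Adgre1 it was at 0.407 and 0.494 without leukemia and at 1.02 and 0.766 with it. The direction depended on the marker. Relative to C1qa each of the 6 was lower with iron in both pairs. Relative to Cd68, a lysosomal protein gene of macrophages, all 6 were higher with iron in WT mice, among them Fcgr3 (0.138 and 0.233) and Fcgrt (0.385 and 0.411). Fcer1g was nearly level there (2.23 and 2.24). In MA9 mice 5 of 6 were higher, with Fcgr2b nearly level (0.303 and 0.304) and Fcgr4 lower (0.457 and 0.438).

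In the leukemia cells the iron pair differed little. The MA9/FE to MA9 ratio was 0.963 for Fcgr2b (0.912 to 1.02), 0.977 for Fcgr3 (0.924 to 1.03) and 0.977 for Fcer1g (0.935 to 1.02). Those 3 intervals hold 1. Fcgr1 had a ratio of 0.626, with a wide interval (0.360 to 1.07) from 24 and 39 reads, and Fcgrt one of 1.15 (0.997 to 1.33). Fcgr4 alone had an interval below 1, at 0.639 (0.505 to 0.806), and its log2(FPKM + 1) difference of -0.56 stood at the 1.91th percentile of the 15259 genes tested. None of the 6 reached a fold of 2, which 0.813% of all tested genes did, and their median difference was -0.04 against 0.00 over all genes. In a limma fit of iron over all 6 libraries, with the 3 pairs (WT macrophages, MA9 macrophages and leukemia cells) as blocks, none of the 6 was called, and neither was any of 16974 genes (0%). At an unadjusted p under 0.05 there were 601 of all genes and 1 of the 6, Fcgr3, with a difference of 0.52 (SE 0.19, adjusted p = 0.992). Fcgrt had a difference of 0.44 there, and those of the other 4 lay between 0.14 and 0.24.

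Macrophages of leukemic mice were set against those of mice without leukemia, once without and once with iron. Fcgr4 and Fcgr3 were higher with leukemia in both pairs and Fcgr2b was lower in both, while Fcgrt was lower without iron and higher with it. Without iron the MA9 to WT ratio was 2.03 for Fcgr4 (1.79 to 2.30), 1.36 for Fcgr3 (1.18 to 1.57) and 1.02 for Fcgr1 (0.794 to 1.3). It was 0.959 for Fcer1g (0.909 to 1.01), 0.887 for Fcgr2b (0.838 to 0.939) and 0.692 for Fcgrt (0.632 to 0.758). On the log2(FPKM + 1) scale Fcgr4 stood just under a fold of 2, at 0.98, and Fcgr3 was next at 0.41. None of the 6 passed a fold of 2 on that scale, which 4.69% of all tested genes did. Fcgr4 passed with 0.1 in place of 1 added to the FPKM and with the trend on exon length removed.

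With iron the MA9/FE to WT/FE ratio was 1.51 for Fcgr4 (1.36 to 1.68), 1.43 for Fcgr3 (1.28 to 1.59) and 1.36 for Fcgr1 (1.1 to 1.67). Fcgrt (1.26, 1.17 to 1.36) and Fcer1g (1.25, 1.19 to 1.32) were also higher, and Fcgr2b was at 0.913 (0.866 to 0.962). Hence 5 intervals lay above 1 and 1 below. The log2(FPKM + 1) differences of Fcgr4, Fcgr3, Fcgrt and Fcer1g were 0.58, 0.49, 0.33 and 0.32. With the trend on exon length removed they were 0.35, 0.29, 0.16 and 0.07, and each had moved beyond its counting interval. None of the 6 reached a fold of 2, which 4.55% of all tested genes did, and the log2(FPKM + 1) differences of the 6 had a median of 0.34 against 0.02 over all genes. The 2 leukemia comparisons share no library with each other, but each shares both of its libraries with the iron comparisons.

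In the limma fit over the 4 macrophage libraries Fcgr4 was the only one of the 6 called for leukemia, with a log2 difference of 0.78 (SE 0.20, adjusted p = 0.0298), and the fit called 5.54% of all genes. The call was lost without a minimum of reads (adjusted p = 0.389), without the trend in limma's variance (0.0968) and with iron left out of the fit (0.218). Fcgr3 had a difference of 0.46 (SE 0.19, adjusted p = 0.207). The differences of Fcgr1, Fcer1g, Fcgrt and Fcgr2b were 0.19, 0.14, -0.09 and -0.14, with limma adjusted p-values of 0.749 or higher. Other cells moved with leukemia: between MA9 and WT macrophages all 15 neutrophil markers were above 0, at a median log2 difference of 3.01, and between MA9/FE and WT/FE macrophages 13 of 15 were above 0 (median 2.2). Between MA9/FE and MA9 macrophages 14 of 15 were below 0 (median -0.87). Neutrophils are known to carry Fcgr4 and Fcgr3, and the part of such cells in the Fcgr4 difference was not tested. Plasma cell markers were higher in 7 of 7 in both pairs and monocyte markers in 7 and 6 of 10.

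**Figure D3:**
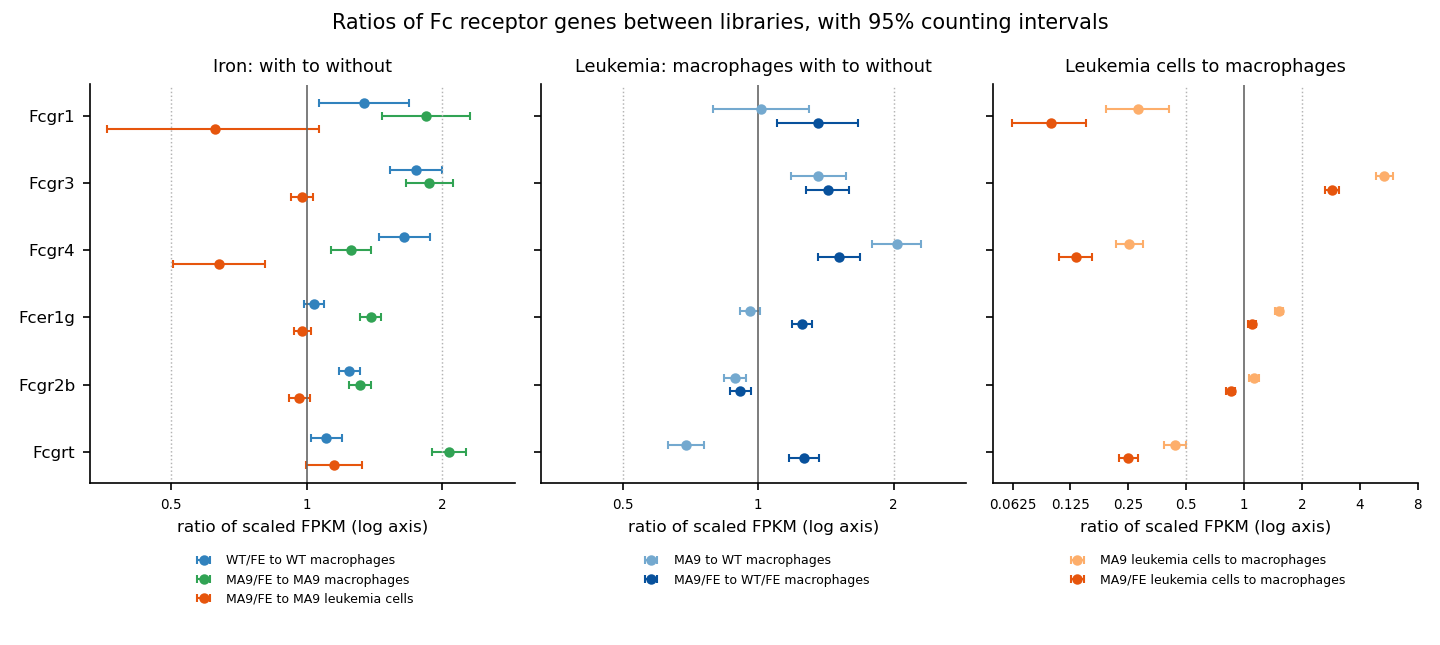
Ratio of TMM-scaled FPKM (horizontal axes, log scale) for the 6 genes in 7 comparisons, as points with 95% counting intervals from the recovered reads and no replicate. Solid lines mark a ratio of 1 and dotted lines a fold of 2. In the macrophages the iron ratios of all 6 genes lie above 1, from 1.04 to 2.07, and in the leukemia cells Fcgr4 lies at 0.639. In the right panel Fcgr3 lies above 2 and Fcgr1, Fcgr4 and Fcgrt below 0.5 in both pairs.

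Leukemia cells were set against macrophages of the same kind of mouse. Fcgr3 was higher in the leukemia cells, and Fcgr4, Fcgr1 and Fcgrt were lower, in both the PBS and the iron pair. Without iron the leukemia cell to macrophage ratio was 5.35 for Fcgr3 (4.83 to 5.93), 1.52 for Fcer1g (1.45 to 1.60) and 1.13 for Fcgr2b (1.06 to 1.19). It was 0.437 for Fcgrt (0.385 to 0.496), 0.281 for Fcgr1 (0.191 to 0.405) and 0.253 for Fcgr4 (0.215 to 0.298). With iron the ratio was 2.87 for Fcgr3 (2.64 to 3.11), 1.1 for Fcer1g (1.05 to 1.15) and 0.851 for Fcgr2b (0.805 to 0.90). The genes that were lower stood at 0.25 (Fcgrt, 0.224 to 0.280), 0.133 (Fcgr4, 0.109 to 0.161) and 0.0986 (Fcgr1, 0.0618 to 0.151). Each gene's ratio was lower in the iron pair than in the PBS pair, and the intervals of the pairs did not overlap for any of the 6. That difference was not tested, since each ratio rests on 2 libraries. These are the same libraries as in the iron ratios of leukemic mice above. The lower ratios therefore restate those iron ratios, apart from the scaling of each pair, and are not a separate result. In both pairs 4 of the 6 genes had a fold of 2 on the log2(FPKM + 1) scale, 1 higher and 3 lower, where 20.1% of all tested genes had it without iron and 22.8% with iron.

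In the limma fit of cell kind and iron over the 4 libraries of leukemic mice the same 4 genes were called, and the fit called 40.9% of 16149 genes. Fcgr3 rose by 1.90 on the log2 scale (SE 0.24, adjusted p = 0.00169) from macrophages to leukemia cells. Fcgr4 fell by 2.30 (SE 0.23, adjusted p = 0.000748), Fcgr1 by 1.58 (SE 0.26, adjusted p = 0.00508) and Fcgrt by 1.53 (SE 0.22, adjusted p = 0.00311). Fcgr3 stood at the 97.8th percentile of all genes in this fit and Fcgr4 at the 4.75th. Fcer1g had a difference of 0.35 (SE 0.27, adjusted p = 0.347) and Fcgr2b one of -0.05 (SE 0.17, adjusted p = 0.835), and a p that misses the threshold does not show that their levels were alike. Without a minimum of reads Fcgr1 was no longer called (limma adjusted p = 0.0763). The ratio of Fcgr4 to Fcgr3 FPKM, 2 genes that neighbour each other, was 1.46 (WT), 1.38 (WT/FE), 2.18 (MA9) and 1.46 (MA9/FE) for the macrophages and 0.103 and 0.0677 in leukemia cells without and with iron. Because the labels give the macrophages and the leukemia cells different tissues, cell kind and tissue cannot be told apart here.

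The IgG and IgE heavy chain genes, code for the ligands of these receptors. Their 5 genes summed to an FPKM of 548, 1382, 5631 and 5407 over the macrophages (WT, WT/FE, MA9, MA9/FE) and to 6.21 and 4.63 in leukemia cells without and with iron. Ighg2c, whose product Fcgr4 binds, was at 158, 917, 4388 and 4253 in the macrophages in that order. With leukemia 5 of 5 were higher without and with iron, and the limma fit called 2 higher, Ighg2b by 2.06 (adjusted p = 0.0448) and Ighe by 1.42 (adjusted p = 0.0213). None of the 5 was called for iron, and all 5 were lower in leukemia cells. Immunoglobulin constant genes resemble each other, so single ones are uncertain.

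The other 14 Fc receptor and Fc receptor-like genes are mostly B cell, mast cell or epithelial genes, and their summed FPKM was between 325 and 620 in the macrophages and 10.7 and 11.3 in the leukemia cells. For leukemia the limma fit over macrophages called 5.54% of all genes. Of this list it called 2 of 12 tested, both higher and both chains of the IgE receptor of basophils and mast cells. Fcer1a differed by 1.49 (limma adjusted p = 0.00151) and Ms4a2 by 0.997 (limma adjusted p = 0.0197). These chains use Fcer1g as well. Mast cell and basophil markers, which include both of these genes, were higher with leukemia in 8 of 9 without iron and 8 of 8 tested with iron. All 11 tested were lower in leukemia cells than in macrophages, among them Fcmr, the IgM receptor (-7.40), and Fcrla (-5.88).

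A list of other receptors grouped around the Fcer1g chain had 10 matched genes, and 8 were tested. The list is loose, and a place in it does not show that a receptor uses the chain. Its direction between cell kinds was split, with 5 called higher in leukemia cells and 3 lower. The fit called 40.9% of all genes. Cd300lb, an activating receptor of myeloid cells, was at 30.7 and 29.4 in the leukemia cells against 3.93 to 6.35 in the macrophages, and rose by 2.12 (adjusted p = 0.00020). Clec4n, which encodes the fungal receptor Dectin-2, was at 0.970 and 1.34 in the leukemia cells against 12.5 to 30.6 in the macrophages, and fell by 3.43 (adjusted p = 0.00019). Clec4n was the only one of them with a fold of 2 between MA9/FE and MA9 macrophages (1.02). Clec4e, which encodes the receptor Mincle, was called higher with leukemia, by 0.93 (limma adjusted p = 0.0478). It was the only one of the 8 called there, where the fit called 5.54% of all genes. For iron none of the 8 was called in either fit.

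Of 30 kinases and adaptors that act after the ITAM, none was called for iron or for leukemia in the macrophages. Between cell kinds 3 were called higher and 11 lower in leukemia cells (median -0.16), in the fit that called 40.9% of all genes. The same share stands beside the cell kind counts of all the other lists. Card9, an adaptor of ITAM signals, was at 127 and 111 in the leukemia cells against 16.5 to 19.8 in the macrophages, and rose by 2.69 (adjusted p = 0.000117). Fgr and Fyn, Src family kinases, both fell by 2.68 (adjusted p = 8.21e-05 for Fgr and 0.000117 for Fyn). Blnk, the B cell linker, fell by 4.88. Of a list of 10 phosphatases and adaptors, not all of them purely inhibitory, 2 were called higher and 4 lower in leukemia cells. None was called in the macrophages. Ptprc, which encodes CD45, fell by 1.86 on the log2 scale (adjusted p = 0.000305). Of 13 ITIM receptors, most but not all of them of myeloid cells, 4 were called higher and 8 lower in leukemia cells. Cd33 rose by 3.35 and Clec12a by 2.95, the latter from at most 12.9 in the macrophages to 100.5 and 94.99 in the leukemia cells, and Cd22, an ITIM receptor of B cells, fell by 4.78. Fcgr2b, which also carries an ITIM, had a difference of -0.05 in the same fit. Of 8 other adaptor chains, most of them with an ITAM, 6 were called lower in leukemia cells, and these included Cd79a and Cd79b of the B cell receptor. Tyrobp, which encodes DAP12, had an FPKM of 667 and 617 in the leukemia cells against 293 to 387 in the macrophages but missed the threshold (0.88, adjusted p = 0.120).

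Of 11 genes of a list of B2m, MHC class I genes and their loading factors, 7 were called lower in leukemia cells and none higher, in the fit that called Fcgrt lower and 40.9% of all genes. B2m, the light chain that the neonatal receptor needs, had an FPKM of 1232 and 992 in the leukemia cells against 1928 to 2995 in the macrophages, and its difference of -1.27 missed the threshold (limma adjusted p = 0.294). Hfe, a class I-like iron regulator, fell by 2.76 (adjusted p = 0.000153). In the macrophages none of the 11 was called for iron or leukemia, and 9 of 11 were above 0 between MA9/FE and MA9 macrophages, where Fcgrt had its largest iron difference. Of 17 tested interferon gamma response genes none was called for iron or leukemia in macrophages, and 15 were above 0 between MA9 and WT macrophages (median 0.17). Between MA9/FE and WT/FE macrophages 12 were above 0 (median 0.33). Fcgr1, which interferon gamma is known to induce, had differences of 0.02 and 0.36 in these pairs, and a link between them was not tested. In the cell kind fit 13 of 16 tested were called lower in leukemia cells and none higher, with Ciita, the class II transactivator, falling by 4.92.

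**Figure D4:**
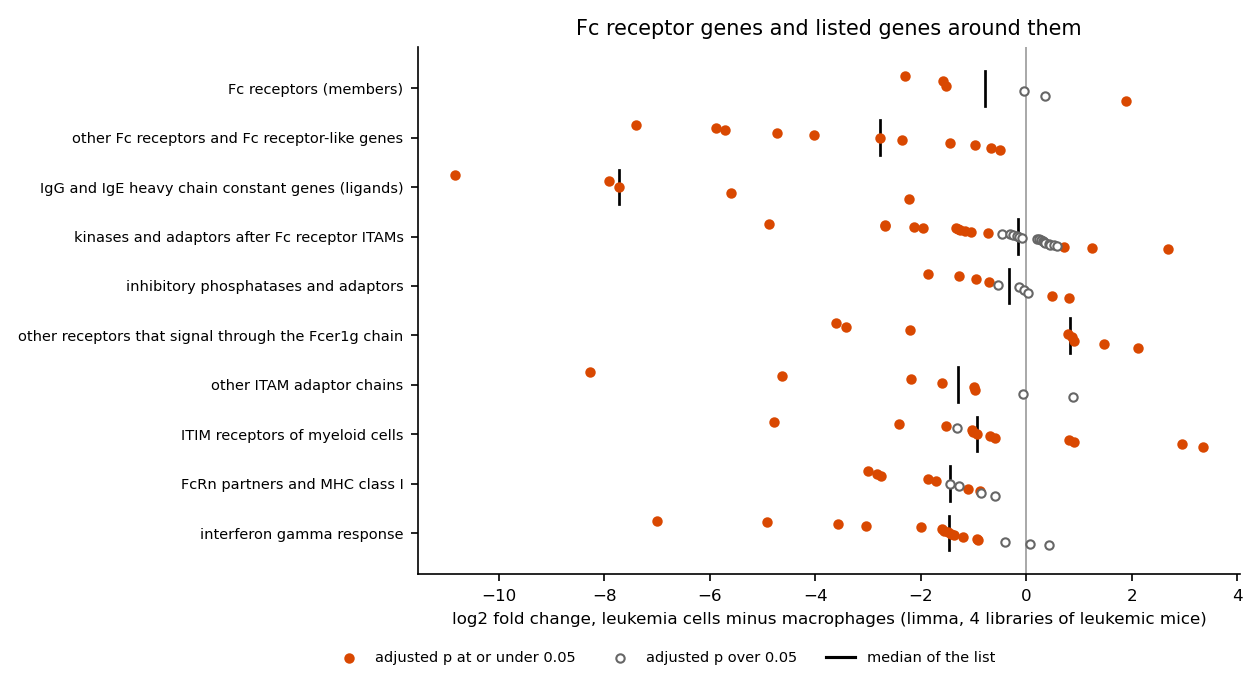
Log2 fold changes of leukemia cells minus macrophages (limma fit over the 4 libraries of leukemic mice) for the 6 genes in the top row and 9 lists of related genes, 1 point per tested gene. Filled points have an adjusted p at or under 0.05, and black lines are the medians. The 6 genes spread from -2.30 (Fcgr4) to 1.90 (Fcgr3), and all tested genes of the heavy chain and other Fc receptor lists lie below 0.

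Other markers stood as follows in summed FPKM. Red pulp macrophage markers (7 genes) were between 232 and 459 in the macrophages and at 32.0 and 31.4 in the leukemia cells, and all 7 were higher with iron in both macrophage pairs. Dendritic cell (9 genes), T cell (8 genes) and NK cell markers (8 genes) were between 353 and 441, 95.3 and 136, and 95.2 and 153 in the macrophages and at most 104, 1.95 and 0.843 in the leukemia cells. NK cells are known to carry Fcgr3, and with iron their markers were below 0 in 8 of 8 in WT mice (median -0.63) and above 0 in 5 of 8 in MA9 mice (median 0.15). Their part in the Fcgr3 level was not tested. Red cell precursor markers (8 genes) were between 94.6 and 499 in the macrophages and at 427 and 162 in the leukemia cells. The 12 leukemia markers summed to between 37.7 and 203 in the macrophages and to 4748 and 4163 in the leukemia cells. Of them Mpo, a granule enzyme of myeloid progenitors, was at 47.1 and 22.9 in MA9 and MA9/FE macrophages against at most 1.63 without leukemia. The part of such RNA in the macrophage values was not tested.

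The genes whose pattern was most like that of each member were picked by Pearson's r of log2(FPKM + 1) over the 6 libraries among 9937 genes with an FPKM of at least 5 somewhere. The 6 libraries fall into 2 cell kinds, and r is given as a description. Fcgr1 was most like C1qb, P2ry13 and C1qc (r of 1.0 each), and C1qb and C1qc encode chains of complement C1q. Fcgr3 was most like Smpdl3a, Sema6b and Tmem106c, Fcer1g like Uap1l1, Ndufaf3 and Dctn6, and Fcgrt like Ypel5, Emc8 and Tnfrsf13b (r of 0.99 to 1.0). Fcgr4 was most like Tubb6, Spryd3 and the ligand gene Ighg2c (0.99 each), and Fcgr2b like Phf2os1, Gm8451 and Paxx (0.95 to 0.99). Among the members, r was 0.97 between Fcgr1 and Fcgrt, 0.95 between Fcgr1 and Fcgr4 and 0.94 between Fcgr3 and Fcer1g. It was -0.78 between Fcgr1 and Fcgr3, and Fcgr2b had values between -0.05 and 0.53 with the other 5.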

How the data were processed

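Gene expression was measured by RNA-seq in 6 libraries, 1 per condition, of macrophages and leukemia cells. The authors deposited FPKM values, 1 file per library, for 54532 Ensembl genes. The submitters' processing notes name mm10, Bowtie2 2.2.5 and RSEM without a role or order. Multiplied by the union exon length of GENCODE M21, 96.8% to 97.0% of values above 0 were whole multiples of a step within 0.05 reads, which gave the reads and a depth of 16085348 to 19518360 per library. No count test was run, and intervals are exact 95% intervals for counting error only.

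Pairs of libraries were scaled by TMM and compared as log2(FPKM + 1), over genes with at least 10 reads in either library, and a gene was called at a fold of 2. Such fold changes understate those of low genes. Models were fitted with limma 3.58.1 (R 4.3.3) with a variance trend over genes that 2 or more libraries held at 10 reads or more. The fits were iron and leukemia over 4 macrophage libraries, cell kind and iron over the 4 libraries of leukemic mice, and iron over 3 pairs. With no replicates, interaction counts as error in them. The scripts were tested on simulated data. The 6 genes and the lists were chosen with earlier results of these data known. Named are the 6 genes, up to 4 genes per list with the largest fold change in a comparison and at least 100 reads in the higher library, list genes called for leukemia in macrophages, the 3 most alike genes per member and neighbouring genes. Other scalings, pseudocounts, read minimums and model terms were tried as alternatives. Promoter windows are from RefSeq, and 4 motifs were searched, of which 1 is not reported here, nor is 1 neighbouring gene.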

Additional observations from a re-analysis of the deposited data

Results flagged for a closer look

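For 4 differences the direction was opposite in a second setting of the same contrast. Each setting has 1 library per condition, so the difference was not tested. The iron difference of Fcgr4 on the log2(FPKM + 1) scale was 0.69 in WT macrophages and -0.56 in leukemia cells, 1.25 apart. In MA9 macrophages it was 0.32, which is 0.880 above that of the leukemia cells. The leukemia difference of Fcgrt was -0.51 without iron and 0.33 with iron, a difference of -0.839. The cell kind difference of Fcgr2b, leukemia cells minus macrophages, was 0.16 in MA9 and -0.22 in MA9/FE mice, 0.388 apart.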

How the results depend on the processing

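Of 210 pairwise values of the 6 genes under the alternatives, 1 changed sign, Fcer1g between MA9 and WT macrophages, and 12 moved beyond their counting interval. The number of the 6 genes called between MA9 and WT macrophages became 1 with a pseudocount of 0.1, where 1302 of 16794 genes were called higher and 641 lower, and with the trend on exon length removed (666 and 119). Between MA9/FE and MA9 macrophages it became 0 with FPKM as deposited, with median-of-ratios size factors and with the length trend removed. The limma fit called 0 of the 6 for leukemia without a minimum of reads, without the variance trend and with the second term left out, where over all genes it called 1, 408 and 29 higher and 0, 30 and 1 lower. The activating to Fcgr2b ratio without Fcgr1 was 1.11 in WT, 1.5 in WT/FE and 2.43 in MA9/FE macrophages. With the longest coding transcript, chosen after seeing the data, it was 0.829, 1.11, 1.55 and 1.78 over the macrophages (WT, WT/FE, MA9, MA9/FE) and 2.82 and 2.78 in leukemia cells without and with iron. In the iron fit over 3 pairs the Fcgr4 difference was -0.12 without the pair of WT macrophages (adjusted p = 0.976). Where no value shows it, the cause was not tested. The iron fit over 3 pairs blocks by cell kind and leukemia, not by animal. Pairing by animal could not be fitted, since no label ties libraries to the same mouse. No library could be left out of the 4-library fits, since no residual degree of freedom would remain.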

Other observations

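The genes next to 3 of the members had these levels. Fcrla, a B cell gene 31.034 kb from Fcgr2b, had an FPKM of 76.9 to 123 in the macrophages and of 0.789 and 0.642 in the leukemia cells. Rcn3, 0.769 kb from Fcgrt, was at 7.16 (WT), 6.90 (WT/FE), 5.65 (MA9) and 11.5 (MA9/FE) for the macrophages and at 2.57 and 3.13 in leukemia cells without and with iron. Hist2h2bb and BC107364, beside Fcgr1, were listed at 0 in all 6 libraries.

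In the leukemia cells 15 of 16 tested interferon gamma response genes were lower with iron, with a median log2(FPKM + 1) difference of -0.55. Gbp2, a guanylate binding protein gene, differed most among those named, by -1.32. There was 1 library per condition and no test of this difference.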
